A study of Homo sapiens with 4 samples.

Results

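The genes described here are 32 human genes of glucose uptake, glycolysis, the fate of pyruvate and the response to low oxygen. They were chosen by gene symbol as members of these pathways. The rule uses no measured value, but the list was drawn up with earlier results of these data known. All 32 were found among the 51714 Ensembl gene identifiers of the deposited tables. Of these 32 genes, 26 had enough reads to be tested and 6 did not.

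RNA was measured in Raji, an established human B cell line from an Epstein-Barr-virus-positive Burkitt lymphoma. The WT group (2 libraries) carried the LS*mock vector with recombinant, HA-tagged wild-type RPB1, the largest RNA polymerase II subunit, and the R1810A group (2 libraries) carried RPB1 with alanine in place of the arginine at that position, a site of methylation in the C-terminal domain. Both groups share the α-amanitin resistance of the introduced RPB1, G418 selection and 10 days of α-amanitin, which blocks the endogenous polymerase, so neither group holds unselected cells. The cells were polyclonal batches, ribosomal RNA was depleted from total RNA, and the labels do not state separate cultures for the libraries of 1 group, so p-values measure no more than how far these libraries differ, perhaps for technical reasons.

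Glycolysis turns glucose into pyruvate. Its preparatory phase spends ATP to phosphorylate and split the sugar, and its payoff phase returns ATP and NADH. Lactate dehydrogenase then reduces pyruvate to lactate, and pyruvate dehydrogenase kinases hold pyruvate back from the mitochondria by switching off pyruvate dehydrogenase. When oxygen is low, prolyl hydroxylases such as EGLN1 no longer mark the α subunit of the hypoxia-inducible factor (HIF) for destruction, and HIF with its partner ARNT activates many glycolytic genes through short DNA elements with the core ACGTG or GCGTG. Burkitt lymphoma cells, in which a translocation drives MYC, are known for strong glycolysis also in the presence of oxygen.

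The 4 libraries held 2326036 and 2991959 gene-assigned reads in WT, against 2116444 and 2081636 in R1810A. All 10 B cell markers had reads, with summed deposited RPKM of 2001.8 to 2456 per library. T and NK cell markers summed to 0.063 to 0.459 RPKM and fibroblast and epithelial markers to 0.125 to 0.324, with 2 of 9 (CD3D, CD8B) and 6 of 8 (COL1A2, COL3A1, DCN, EPCAM, KRT8, KRT18) at 0 in every library. Myeloid markers summed to 17.5 to 28.9 RPKM with S100A8, S100A9 and FCGR3A at 0, and CSF1R (445, 394, 508 and 324 reads) held most of it. Counts differed between libraries of 1 group by more than sampling noise, with a chi-square per degree of freedom of 4.03 between the WT libraries and 2.13 between the R1810A libraries.

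Of the 32 genes, 25 stood at 1 RPKM or more in every library. Among them was at least 1 gene for each step from hexokinase to lactate dehydrogenase, beside genes of the hypoxia response. RPKM here is the read count scaled to the deposited gene length in kilobases and to library size after TMM scaling. ENO1 (enolase), PKM (pyruvate kinase) and ALDOA (aldolase) stood at the top and took 56.3% of the reads of all 32 genes. At the other end, CA9 had no read in any library, and BNIP3, NDRG1, ENO2, SLC16A3 and SLC2A3 had fewer than 20 reads over the 4 libraries. The 32 genes together made up 1.16% and 0.951% of all counts in WT (1.06% ± 0.151, SD, n = 2) and 0.995% and 0.995% in R1810A (0.995% ± 0.0004, SD, n = 2). The R1810A values lay between those of WT. In RNA from a whole culture, fewer cells with a transcript and less of it per cell cannot be told apart.

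**Figure D1:**
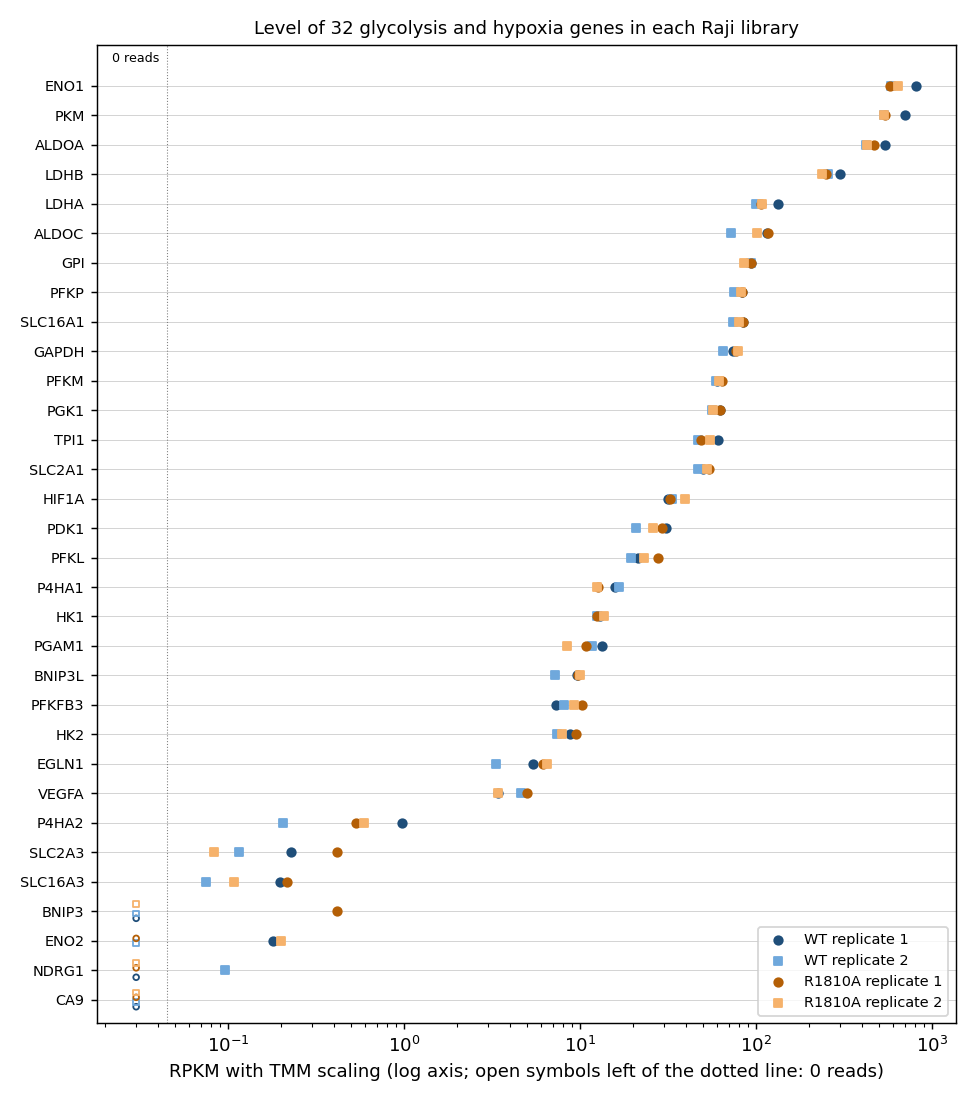
Level of each of the 32 genes in each of the 4 libraries, in RPKM with TMM scaling on a log axis; open symbols left of the dotted line stand for 0 reads. ENO1, PKM and ALDOA lie above every other gene in every library, and the 4 points of most genes lie close together beside the distance between genes.

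None of the 26 tested genes passed the test of R1810A against WT (edgeR quasi-likelihood, Benjamini-Hochberg over 10674 genes, threshold 0.05). Over all genes, 0.347% were called higher and 0.00937% lower in R1810A, so a count of 0 among 26 is near the background. At an unadjusted p under 0.05, 2 of the 26 were higher (PFKL, EGLN1) and 1 lower (P4HA1), against 4.94% and 3.06% of all genes. DESeq2 and limma-voom called none of the 26 either, and at an unadjusted p under 0.05 they gave 0 genes and 3 genes. The 2 groups did not overlap in 7 genes with R1810A higher and in 3 with R1810A lower, against 19.8% and 19.5% of all genes tested.

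Log2 fold changes, R1810A over WT, ran from -0.38 (PGAM1) to 0.56 (EGLN1), with a median of 0.06 beside 0.00 over all genes tested. The value was above 0 in 17 genes and below 0 in 9 (34.6%, against 50.6% of all genes). This split depends on the scaling. With the deposited total read numbers in place of TMM, the median of all genes moved by -0.12, 18 of the 26 lay below 0, and the median of the 26 was -0.06. Each standard error (SE) below is the absolute log2 fold change divided by the square root of the edgeR F statistic, and a p that misses the threshold does not show that a level did not differ.

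**Figure D2:**
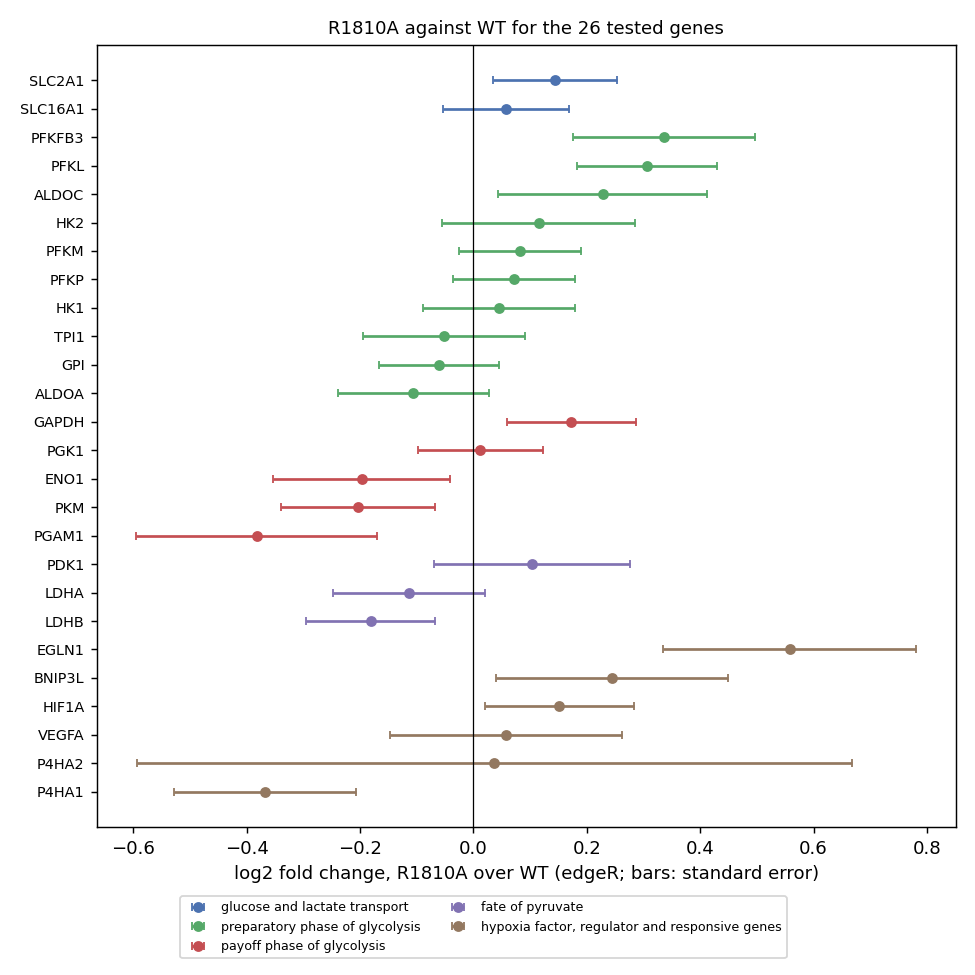
Log2 fold change, R1810A over WT, of the 26 tested genes from the edgeR fit, with bars for the standard error and colours for the role of the gene. Values run from -0.38 (PGAM1) to 0.56 (EGLN1), and none passed the threshold after adjustment over all genes.

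The DNA just upstream of these genes was searched for the HIF core, ACGTG or GCGTG on either strand, in the 250 bases before the RefSeq start (GRCh38.p14). Of the 32 genes, 27 had an entry, and 16 of those (59.3%) held a core, against 43.1% of 27305 promoters of the same length. ACGTG alone was in 12 (44.4%, against 18.7%). CACGTG, the E-box that MYC can bind and that holds ACGTG on both strands, was in ALDOC, GAPDH, LDHA and BNIP3 (14.8%, against 6.49%). The stretches of 30 bases below, from RefSeq, hold the most cores of each window. They show abundant glycolytic genes (ENO1, LDHA, ALDOC), the genes with an unadjusted p under 0.05 (PFKL, P4HA1, EGLN1) and the hypoxia genes BNIP3 and CA9, which had 1 read and none. They are written 5′ to 3′ along the gene with the cores in capitals, and a core on the other strand reads CACGT or CACGC.
ENO1: cggagctgaggggGCGTGccccggaggcgg
LDHA: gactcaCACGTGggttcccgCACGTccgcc
ALDOC: aggcCACGCccccggaggagtCACGTagct
PFKL: ctgctcagggcccGCGTGacattgcacagg
P4HA1: gtgtgatcgagctCACGTagcgagggctgc
EGLN1: ccgcggggccgtggtgtACGTGcagagcgc
BNIP3: gccgCACGTGccaCACGCacccCACGCccc
CA9: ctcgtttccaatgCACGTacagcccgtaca

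These stretches lie at chr1:8878742-8878771 (ENO1, minus strand), chr11:18394470-18394499 (LDHA, plus), chr17:28576915-28576944 (ALDOC, minus), chr21:44299876-44299905 (PFKL, plus), chr10:73096936-73096965 (P4HA1, minus), chr1:231422288-231422317 (EGLN1, minus), chr10:131982032-131982061 (BNIP3, minus) and chr9:35673897-35673926 (CA9, plus). BNIP3 held 6 cores in its window and LDHA 5, with CACGTG counted on both strands, while CA9, EGLN1, P4HA1 and PFKL held 1 each. The core of CA9 began 18 bases before the start and that of EGLN1 13 bases before it. So a core stood both before the most abundant gene, ENO1, and before CA9 with no read, and a match describes letters, not binding. The 11 matched genes without these letters in the window were SLC2A1, SLC16A3, HK1, PFKM, PFKP, TPI1, PGAM1, PKM, LDHB, PDK1 and P4HA2.

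SLC2A1 (GLUT1) and SLC2A3 (GLUT3) are glucose transporters of the cell surface, and SLC2A1, the widespread form, held nearly all of the transcript of this pair. SLC2A1 stood at 50.04 and 47.0 RPKM in WT, against 54.3 and 52.9 in R1810A. The R1810A libraries lay above both WT libraries, yet the difference was small (log2 fold change 0.14, SE 0.11, edgeR adjusted p = 0.769). SLC2A3, the high-affinity transporter of neurons and many leukocytes, had 3 and 2 reads in WT, against 5 and 1 in R1810A, so SLC2A1 made up 99.6% of the summed RPKM of the pair. Other members of the family were transcribed too, and a pair of them is named here after their values were seen. SLC2A5, a fructose transporter, stood above SLC2A1, at 94.3 and 90.7 RPKM in WT, against 80.8 and 88.7 in R1810A. SLC2A6 stood at 25.4 and 19.5 RPKM in WT, against 27.1 and 24.1 in R1810A.

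Of the lactate transporters, SLC16A1 (MCT1) had the highest level. This common monocarboxylate transporter stood at 84.0 and 73.8 RPKM in WT, against 84.6 and 79.4 in R1810A (log2 fold change 0.06, SE 0.11, edgeR adjusted p = 0.923), and the groups overlapped. SLC16A3 (MCT4), the exporter that HIF induces in many cells, had 2 and 1 reads in WT, against 2 and 1 in R1810A. SLC16A1 therefore held 99.8% of this pair's RPKM. SLC16A7 (MCT2), a further monocarboxylate transporter named after its values were seen, stood at 11.4 and 12.8 RPKM in WT, against 10.2 and 11.1 in R1810A. SLC16A3 shares exon sequence on the opposite strand with CSNK1D, which had 437 reads, and without stated use of strand the reads of such neighbours cannot be told apart.

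The 10 genes of the preparatory phase had a median log2 fold change of 0.08, with 7 above and 3 below 0 under TMM scaling. Without WT replicate 2, HK2, PFKP and ALDOC also turned below 0, so this split too depends on single WT libraries. Hexokinase, the entry step, was carried by 2 isoenzymes. HK1, the ubiquitous form, stood at 13.0005 and 12.5 RPKM in WT, against 12.5 and 13.7 in R1810A, and HK2, the inducible form of muscle and tumours, at 8.74 and 7.36 in WT, against 9.49 and 7.85 in R1810A. Both overlapped between groups (log2 fold change 0.04, SE 0.13, edgeR adjusted p = 0.953 for HK1; 0.12, SE 0.17, edgeR adjusted p = 0.893 for HK2). HK1 made up 59.8% and 62.9% of the summed RPKM of HK1, HK2 and HK3 in WT, against 56.9% and 63.2% in R1810A. HK3 had 1 read. GPI, which converts glucose 6-phosphate to fructose 6-phosphate, was far above both hexokinases, at 93.3 and 93.0 RPKM in WT, against 93.4 and 85.3 in R1810A (log2 fold change -0.06, SE 0.11, edgeR adjusted p = 0.913).

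Phosphofructokinase, the committed step of glycolysis, had all 3 of its forms well transcribed. PFKP, the platelet form, stood at 83.1 and 74.7 RPKM in WT, against 83.4 and 82.3 in R1810A, and PFKM, the muscle form, at 59.6 and 59.2 in WT, against 64.0 and 61.8 in R1810A. PFKL, the liver form, had 21.4 and 19.4 RPKM in WT, against 27.5 and 22.9 in R1810A. PFKL was higher in both R1810A libraries, with 20.4 ± 1.39 RPKM in WT and 25.2 ± 3.25 in R1810A (SD, n = 2; log2 fold change 0.31, SE 0.12, edgeR unadjusted p = 0.0314, adjusted p = 0.568). Leaving out R1810A replicate 1 gave 0.16 on the log2 scale, and leaving out R1810A replicate 2 gave 0.43. PFKM also did not overlap (0.08, SE 0.11, edgeR adjusted p = 0.876), though it turned to -0.039 with the deposited total reads, while PFKP did (0.07, SE 0.11, edgeR adjusted p = 0.894).

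As shares of the family, PFKP took 49.1%, PFKM 37.1% and PFKL 13.8%, as means of 4 libraries. PFKL held 13.04% and 12.7% in WT, against 15.7% and 13.7% in R1810A, a difference of 1.87 percentage points without overlap (two-sided exact permutation p = 0.333, the smallest that 2 against 2 libraries allow). These shares depend on gene length: the deposited PFKL length is 3.07 times that of its principal transcript in GENCODE 29, and with principal lengths PFKP, PFKL and PFKM took 51.5%, 24.8% and 23.7%. PFKM also shares exon sequence on the opposite strand with SENP1 (741 reads).

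PFKFB3, which makes the phosphofructokinase activator fructose 2,6-bisphosphate and responds to HIF, had 7.28 and 8.06 RPKM in WT, against 10.2 and 9.21 in R1810A. Both R1810A libraries were above WT, without passing the test (log2 fold change 0.34, SE 0.16, edgeR adjusted p = 0.638). PFKFB3 held 50.6% of its family's RPKM, PFKFB4 31.9% and PFKFB2 16.5%, as means of 4 libraries. The share of PFKFB4 ran from 22.9% to 39.2% between the WT libraries, a wider range than between the groups. With principal transcript lengths, PFKFB4 led in WT replicate 1 (46.7%, against 38.6% for PFKFB3), and PFKFB3 led in every other library.

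Aldolase splits the phosphorylated sugar. ALDOA, the muscle and general form, stood at 538 and 422 RPKM in WT, against 464 and 427 in R1810A, with the highest and the lowest value both in WT (log2 fold change -0.11, SE 0.13, edgeR adjusted p = 0.870). ALDOC, best known as the brain form, was itself abundant in this B cell line, at 116 and 72.4 RPKM in WT, against 117 and 102 in R1810A (log2 fold change 0.23, SE 0.18, edgeR adjusted p = 0.783). Its lowest value was in WT replicate 2. Without WT replicate 1, ALDOC was called higher in R1810A (log2 fold change 0.59, edgeR adjusted p = 0.0407), and without WT replicate 2 it was -0.08, so 1 library decides both the call and the sign.

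ALDOC took 17.7% and 14.7% of the summed RPKM of ALDOA and ALDOC in WT, against 20.1% and 19.2% in R1810A, and ALDOA the rest. The shares differed by 3.51 percentage points (16.2% ± 2.14 in WT, 19.7% ± 0.656 in R1810A, SD, n = 2; two-sided exact permutation p = 0.333). Over the 31 isoenzymes of 12 families, 3 shares did not overlap between the groups (PFKL, and ALDOA and ALDOC, which mirror each other). Levels, a different measure, did not overlap in 19.8% of all genes tested with R1810A higher and in 19.5% with R1810A lower. So 3 of 31 shares is not more than that background. With 2 against 2 libraries a share cannot reach a p below 0.333, so the share differences are descriptions of the libraries. TPI1, which interconverts the triose phosphates, stood at 60.5 and 47.0 RPKM in WT, against 48.5 and 54.7 in R1810A (log2 fold change -0.05, SE 0.14, edgeR adjusted p = 0.945), and the groups overlapped.

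**Figure D3:**
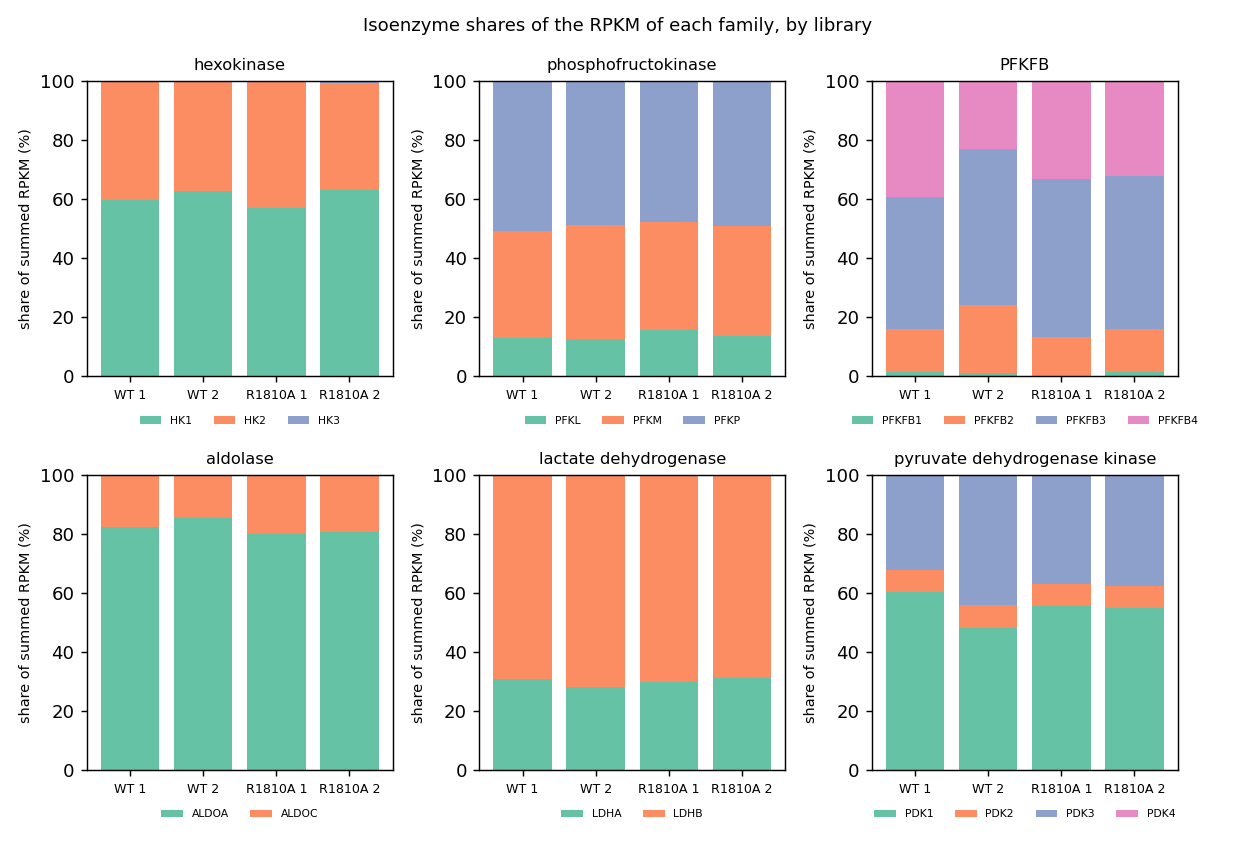
Share of each isoenzyme in the summed RPKM of its family, in percent, for each of the 4 libraries; stacked bars add to 100%. On the deposited lengths, the leading isoenzyme of each plotted family is the same in all 4 libraries, and ALDOC takes 14.7% to 20.1% of the sum of ALDOA and ALDOC.

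The payoff phase held the most abundant transcripts, and its 5 tested genes had a median log2 fold change of -0.20, with 3 below and 2 above 0 under TMM scaling. GAPDH, which makes NADH, stood at 73.6 and 64.6 RPKM in WT, against 76.7 and 78.8 in R1810A. Both R1810A libraries were above WT (log2 fold change 0.17, SE 0.11, edgeR adjusted p = 0.725). PGK1, the first ATP-forming enzyme, had 62.1 and 56.3 RPKM in WT, against 62.3 and 57.0 in R1810A, the smallest difference of the 26 genes (0.01, SE 0.11, edgeR adjusted p = 0.982). PGAM1, a phosphoglycerate mutase, had the lowest RPKM of the tested payoff genes, at 13.3 and 11.7 in WT, against 10.7 and 8.40 in R1810A. The levels of PGAM1 and GAPDH are uncertain, because pseudogenes share much of their sequence, as given below. For PGAM1 the R1810A libraries were both below WT, in few reads (80, 93, 59 and 46), and the difference did not pass (-0.38, SE 0.21, edgeR adjusted p = 0.672).

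ENO1 was the most abundant gene of the set, at 815 and 580.2 RPKM in WT, against 579.5 and 637 in R1810A. Only WT replicate 1 stood apart from the other 3 libraries, which lay within 579.5 to 637 (WT 697 ± 166, R1810A 608 ± 40.7, SD, n = 2; log2 fold change -0.20, SE 0.16, edgeR adjusted p = 0.781). ENO2, the neuronal enolase and a HIF target in other cells, had 1 and 0 reads in WT, against 0 and 1 in R1810A, and ENO3, the muscle form, had 5 to 14. ENO1 thus made up 99.6% of enolase RPKM. PKM, which forms pyruvate, had the same profile as ENO1 at 699.7 and 536 RPKM in WT, against 543 and 529.8 in R1810A, again with WT replicate 1 alone above the rest (log2 fold change -0.20, SE 0.14, edgeR adjusted p = 0.732). Counts per gene do not tell the splice forms of PKM apart.

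At the branch from pyruvate, LDHB, the heart form of lactate dehydrogenase, exceeded LDHA, the muscle form and a target of HIF and MYC. LDHB stood at 298 and 256 RPKM in WT, against 251 and 237 in R1810A, and LDHA at 132 and 99.6 in WT, against 106 and 108 in R1810A. Both R1810A libraries were below WT for LDHB (log2 fold change -0.18, SE 0.11, edgeR adjusted p = 0.713), and LDHA overlapped (-0.11, SE 0.13, edgeR adjusted p = 0.858). LDHB made up 69.3% and 71.97% of the pair in WT, against 70.2% and 68.8% in R1810A, a division that differed between groups by 1.10 percentage points (two-sided exact permutation p = 0.667). On counts without length the LDHB share was 59.1%, still the larger.

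PDK1, a pyruvate dehydrogenase kinase and HIF target, had 30.7 and 20.8 RPKM in WT, against 28.995 and 25.9 in R1810A (log2 fold change 0.10, SE 0.17, edgeR adjusted p = 0.907). The WT libraries enclosed both R1810A values. By RPKM on the deposited lengths PDK1 took 54.8% of the kinase family, PDK3 37.7% and PDK2 7.47%, with PDK4 at 0 reads. With principal transcript lengths the order of the first pair turned, to 57.4% for PDK3 and 29.3% for PDK1. The length used for PDK1, 8591.5 bases, is a median over its principal transcripts, and 1 of these has 2990 bases. Shares with that shorter transcript were not computed, so which kinase leads depends on the length used.

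The 9 genes of the hypoxia response fell into transcribed and almost silent ones, and the 6 tested had a median log2 fold change of 0.10. HIF1A, the oxygen-regulated α subunit, had 31.4 and 33.3 RPKM in WT, against 32.2 and 39.7 in R1810A (log2 fold change 0.15, SE 0.13, edgeR adjusted p = 0.792), and the groups overlapped. EGLN1 (PHD2), the oxygen sensor that marks it, had 5.37 and 3.35 RPKM in WT, against 6.14 and 6.49 in R1810A. Both R1810A libraries were above WT, with 4.36 ± 1.43 RPKM in WT and 6.31 ± 0.248 in R1810A (SD, n = 2; log2 fold change 0.56, SE 0.22, edgeR unadjusted p = 0.0296, adjusted p = 0.563). It had the largest log2 fold change of the 26 genes and missed the threshold under all 13 alternatives, with a smallest adjusted p of 0.0619. The WT libraries set its size: leaving out WT replicate 1 gave 0.91 on the log2 scale, and leaving out WT replicate 2 gave 0.23. EGLN3, the hydroxylase that HIF itself induces, had reads in R1810A replicate 2 alone.

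P4HA1, a collagen prolyl hydroxylase subunit induced by low oxygen, stood at 15.7 and 16.7 RPKM in WT, against 12.7 and 12.4 in R1810A. Both R1810A libraries were below WT, with 16.2 ± 0.676 RPKM in WT and 12.6 ± 0.191 in R1810A (SD, n = 2; log2 fold change -0.37, SE 0.16, edgeR unadjusted p = 0.0429, adjusted p = 0.606). Under the 13 alternatives its log2 fold change stayed between -0.49 and -0.32. P4HA2, its paralogue, had 18 and 5 reads in WT, against 9 and 10 in R1810A, too few to place its fold change (0.04, SE 0.63, edgeR adjusted p = 0.987). P4HA1 took 96.1% of the RPKM of the pair.

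VEGFA, the angiogenic factor, had 3.43 and 4.59 RPKM in WT, against 5.02 and 3.40 in R1810A (log2 fold change 0.06, SE 0.20, edgeR adjusted p = 0.962). The R1810A libraries enclosed both WT values. Its deposited length is 12.0 times that of the principal transcript, which lowers its RPKM beside other genes. BNIP3L (NIX), a receptor for removal of mitochondria, had 9.59 and 7.19 RPKM in WT, against 9.70 and 10.00 in R1810A, with both R1810A libraries above WT (log2 fold change 0.24, SE 0.20, edgeR adjusted p = 0.785).

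BNIP3, its paralogue, had 0 and 0 reads in WT, against 1 and 0 in R1810A. The deposited length of BNIP3, 1160 bases, is 0.405 times that of its principal transcript. NDRG1, a stress gene strongly induced by low oxygen, had 0 and 1 reads in WT and none in R1810A. CA9, the cell-surface carbonic anhydrase used as a hypoxia marker, had no reads, which at 3 counts per library allows up to 1.00 to 1.44 CPM, a limit that covers counting error alone. Of genes known as strong hypoxia targets, CA9, NDRG1, BNIP3, ENO2, SLC16A3 and SLC2A3 were thus at or near 0 in both groups, while LDHA, PGK1, ALDOA, ENO1 and PDK1 were well transcribed in both.

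WT replicate 1 had higher levels than WT replicate 2 in 22 of the 26 genes (84.6%), with a median log2 difference of 0.19. Over all genes tested the share was 48.95%, and among genes with a mean of at least 200 reads it was 57.5%, against 16 of 17 of the glycolysis and hypoxia genes at that depth. The fold of WT replicate 1 over WT replicate 2 was largest for P4HA2, at 4.74 on few reads, followed by 1.60 for ALDOC and EGLN1, 1.47 for PDK1, 1.40 for ENO1, 1.33 for BNIP3L and LDHA and 1.31 for PKM. In R1810A, replicate 1 was higher in 17 of 26 genes (65.4%, against 49.1% of all genes), with a median log2 difference of 0.04. In 18 of the 26 genes the 2 WT libraries differed by more on the log2 scale than the group means did. Single libraries spread more than group means, and the share over all genes was not computed, so this count describes the libraries only. Leaving out WT replicate 2 turned the median of the 26 to -0.05 and put 16 of them below 0, and leaving out WT replicate 1 put 6 below 0.

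**Figure D4:**
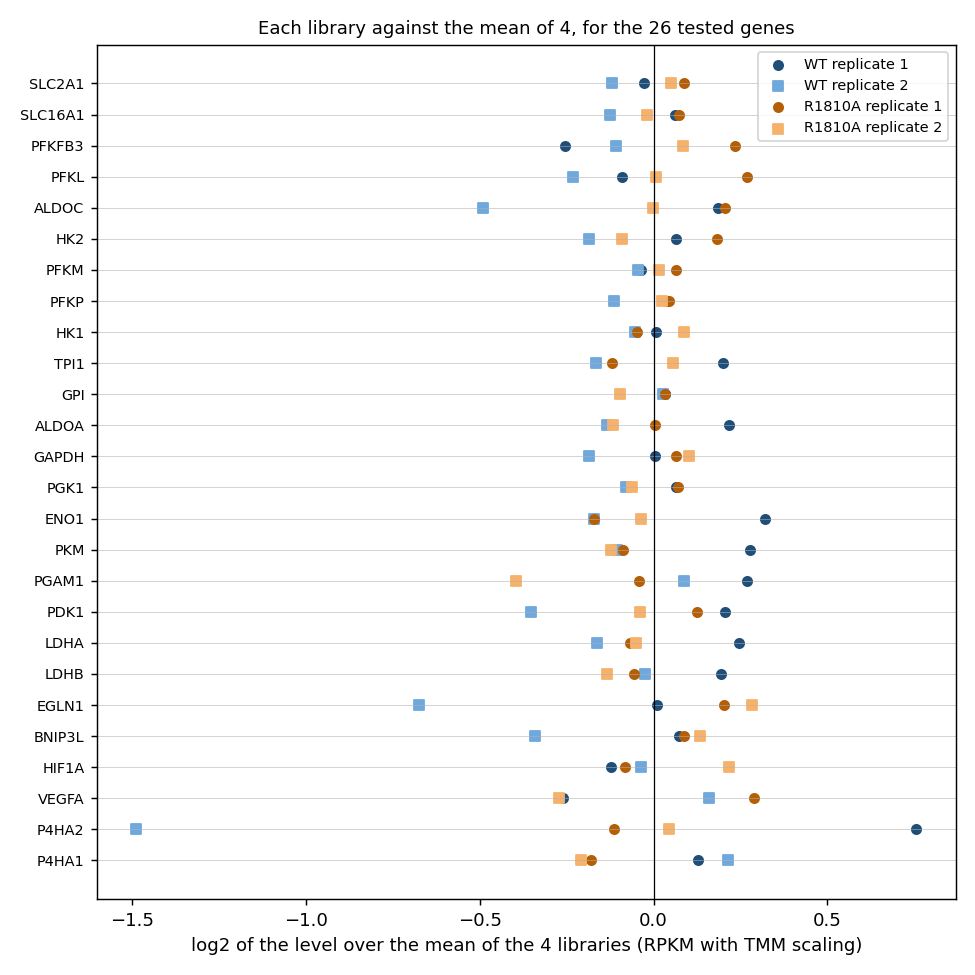
Log2 of each library's level over the mean of the 4 libraries, in RPKM with TMM scaling, for the 26 tested genes. WT replicate 1 lies above WT replicate 2 in 22 genes, and in 18 genes the WT libraries are further apart than the group means. Single libraries spread more than group means.

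Many of these genes have processed pseudogenes, and reads of near-identical copies may have been lost, split or assigned to the copy. By symbol, 14 of the 32 genes had 108 annotated pseudogene copies, of which 58 had reads. GAPDH had 64 copies and PGAM1 11. The copies with the most reads were LDHBP2 (363 and 451 reads in WT, 345 and 329 in R1810A), PKMP1 (335 and 313, 297 and 303) and ALDOAP2 (231 and 232, 169 and 176). Of reads at LDHB and its copies together, 20.1% to 23.9% per library fell on copies, and of those at TPI1 and its copies 27.8% to 31.4%. For HK2 the range was 22.1% to 28.8%, and for PGK1 it was 15.8% to 19.2%.

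Shared sequence was measured as the share of 36-base windows of the principal transcript that occur letter for letter in an annotated pseudogene. Any pseudogene on either strand counted, whether or not it is a copy of the gene by symbol. This share was 40.7% for PGAM1, 38.8% for GAPDH, 37.0% for TPI1 and 20.4% for LDHA, and 0 for 18 of the 32 genes. The levels of these 4 genes are therefore uncertain, as are those of genes with many reads at copies. The read length is not given in the sources used here. BNIP3 is a case of its own. BNIP3P41, a transcribed pseudogene named after its values were seen, had 32 and 115 reads in WT, against 36 and 33 in R1810A, while BNIP3 had 1 read in all. WT replicate 2 was the high library. With reads of copies added to the parent gene, BNIP3L took 35.4% of the BNIP3 pair in place of 98.98%. Of the 36-base windows of BNIP3, 10.0% occurred in a pseudogene. How reads were divided between BNIP3 and its copies is not stated.

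**Figure D5:**
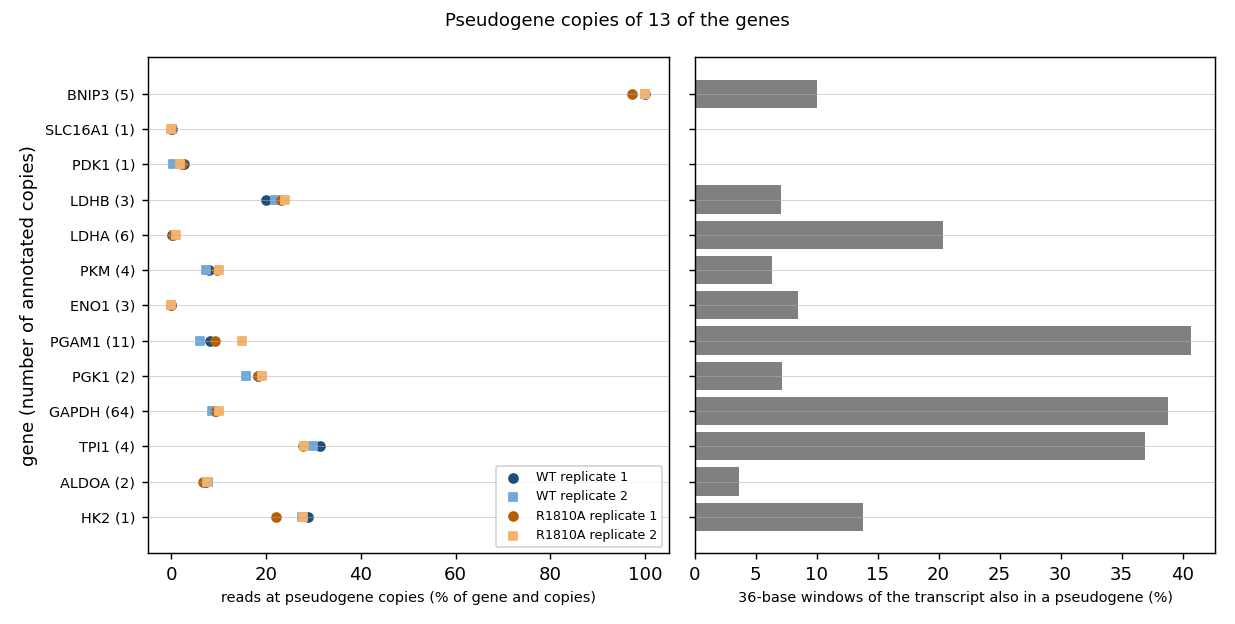
Left, reads at annotated pseudogene copies as a percent of reads at the gene and its copies, by library; right, percent of 36-base windows of the transcript that occur in a pseudogene. SLC2A3, with 11 reads, is left out. Almost all reads at BNIP3 and its copies lie on the copies, and PGAM1, GAPDH and TPI1 share the most windows.

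No gene of 5 further lists from neighbouring pathways was called. Among 11 tested of 24 other glycolytic isoenzymes and regulators (median log2 fold change -0.13), ADPGK, an ADP-dependent glucokinase, had the smallest p (-0.29, SE 0.13, edgeR adjusted p = 0.611), followed by the transporter SLC2A8 (-0.36, SE 0.24, edgeR adjusted p = 0.737). Among 16 tested of 23 other HIF pathway and hypoxia genes (median -0.10), ANKZF1 (0.31, SE 0.15, edgeR adjusted p = 0.635) and ARNT, the partner of HIF1A (-0.32, SE 0.15, edgeR adjusted p = 0.635), led. EGLN2 matched no symbol and has no value here.

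Among 12 tested of 13 genes of pyruvate entry into mitochondria, MPC1, a subunit of the mitochondrial pyruvate carrier, stood at 37.9 and 24.8 RPKM in WT, against 44.3 and 44.1 in R1810A (log2 fold change 0.51, SE 0.19, edgeR adjusted p = 0.523), and its partner MPC2 at 37.6 and 44.1 in WT, against 32.7 and 36.01 in R1810A (-0.25, SE 0.14, edgeR adjusted p = 0.662). The 2 subunits of 1 carrier thus lay on opposite sides of 0, neither past the threshold. The log2 fold change of MPC1 rests on the WT library compared, with 0.83 without WT replicate 1 and 0.22 without WT replicate 2.

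All 8 pentose phosphate genes were tested (median -0.10), led by PGLS, the lactonase (126 and 133 RPKM in WT, 116 and 83.4 in R1810A; log2 fold change -0.38, SE 0.15, edgeR adjusted p = 0.568), and H6PD (-0.25, SE 0.13, edgeR adjusted p = 0.654). Of 16 tricarboxylic acid cycle genes, 15 were tested (median -0.10). SUCLA2, a subunit of succinyl-CoA synthetase, stood at 7.44 and 7.503 RPKM in WT, against 10.5 and 10.7 in R1810A (log2 fold change 0.50, SE 0.20, edgeR adjusted p = 0.545), and CS, citrate synthase, had -0.27 (SE 0.14, edgeR adjusted p = 0.654). At an unadjusted p under 0.05 the 5 lists gave 2 genes higher (MPC1, SUCLA2) and 2 lower (ADPGK, PGLS). These were 1 of 12, 1 of 15, 1 of 11 and 1 of 8 tested, in that order, with none of 16 in the HIF list. Over all genes tested, 4.94% were higher and 3.06% lower at that p.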

How the data were processed

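Total RNA of 4 Raji libraries was sequenced on an Illumina GAII after ribosomal RNA depletion, per the labels' protocols. The authors deposited raw read counts per gene, RPKM, gene length and a total read number, per the file headers. Per the submitters' processing notes, Bowtie was the aligner and hg19 the build. The sources used here do not state the counter, the annotation, the use of strand or the treatment of multiply matching reads. The deposited RPKM equalled count over length and total reads in every row (relative tolerance 0.0001) and was not tested; what the total counts is not stated. In R 4.3.3, edgeR 4.0.16 tested the counts (filterByExpr, TMM scaling, quasi-likelihood fit on group alone, Benjamini-Hochberg over 10674 genes). The code was checked on simulated data with planted changes larger than the main fold change of any gene named here. That check does not show that smaller changes would be found. Levels are counts scaled to deposited length and TMM library size. Alternatives used limma 3.58.1, DESeq2 1.42.0, other scalings, filters, lengths and left-out libraries. All 32 genes are named, with the 2 smallest p of each wider list, the isoenzymes of 12 families (some members are not reported here) and the 3 pseudogene copies with most reads. Members and lists were chosen with earlier results of these data known. Of the identifiers, 40926 received a symbol. Transcript lengths, exon overlaps and pseudogene types and sequences came from GENCODE 29 (GRCh38), not the build of the counts. Symbols came from a separate gene name reference, with GENCODE 29 names where it gave none. A principal transcript length is the median over the principal transcripts of a gene. By that annotation, 22 of the 32 genes share exon sequence with another gene, 18 of them on the opposite strand. No protein sequence was used.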

Additional observations from a re-analysis of the deposited data

How the results depend on the processing

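The 36 genes named with a fold change gave 467 values over 13 alternatives. Of these, 437 kept direction and side of the threshold, 29 in 15 genes changed sign, and 1 passed it (ALDOC without WT replicate 1, log2 fold change 0.59). The cause was not tested in any case. With deposited total reads the log2 fold change was -0.078 for HK1, -0.0059 for HK2, -0.039 for PFKM, -0.050 for PFKP, -0.11 for PGK1, -0.018 for PDK1, -0.064 for SLC16A1, -0.085 for P4HA2 and -0.061 for VEGFA, the median of the tested genes was -0.063, and 5 genes in all were called lower. DESeq2 gave P4HA2 -0.0365. Leaving out 1 library at a time gave -0.27 to 0.078 for ALDOA, -0.082 to 0.59 for ALDOC, -0.42 to 0.067 for ENO1, -0.01 to 0.29 for HIF1A, -0.028 to 0.11 for HK1, -0.032 to 0.24 for HK2, -0.31 to 0.10 for LDHA, -0.78 to 1.43 for P4HA2, -0.16 to 0.40 for PDK1, -0.0074 to 0.15 for PFKP, -0.061 to 0.083 for PGK1, -0.036 to 0.15 for SLC16A1, -0.23 to 0.13 for TPI1 and -0.25 to 0.31 for VEGFA, with a median of the tested genes of -0.049 to 0.12 and 0 to 1 of them called higher. Over all genes, 37 were called higher and 1 lower; leaving out 1 library gave 2 to 113 higher and 0 to 40 lower, no filter 78 and 7, a minimum of 10 reads in every library 21 higher, limma-voom 24 higher, and DESeq2 and robust edgeR 2 and 4 lower. Deviations of libraries with the same replicate number were nearly uncorrelated over genes (correlation -0.04). With 2 libraries per group this cannot exclude that the numbers pair the libraries. A fit with the replicate block gave 73 higher and 4 lower and called no glycolysis or hypoxia gene. Mean isoenzyme shares moved on counts without length (PFKFB3 44.2%, ALDOA 86.6%, ENO1 99.8%, LDHB 59.1%, PDK1 61.5%, P4HA1 90.5%), with principal transcript lengths, chosen after seeing the data (HK1 71.5%, PFKP 51.5%, PFKFB3 44.7%, ALDOA 88.5%, LDHB 66.1%, PDK1 29.3%, SLC16A1 99.7%, P4HA1 89.6%), and with pseudogene reads added, also chosen after seeing the data (HK1 53.2%, LDHB 74.96%, BNIP3L 35.4%). With ACGTG alone as the core, 44.4% of the matched windows held it. The filter left out 6 of the 32 genes, each with fewer than 20 reads in all. Without it 31 were tested and none was called, and at so few reads a difference may not be detectable.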
